A study of Mus musculus with 15 samples.

Results

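The expression of 10 genes that carry iron into macrophages, store it, release it from haem and export it was followed in 15 RNA-seq libraries of macrophages sorted from mouse ear skin. The genes were chosen by name for their place in iron handling: Trf, Tfrc, Slc11a2 and Slc11a1 for uptake, Fth1, Ftl1 and Ncoa4 for storage, Hmox1 and Blvrb for haem breakdown, and Slc40a1 for export. All 10 were among the 42454 genes of the deposited table, and all 10 passed the filter on low values (a mean of at least 100 normalized counts over the 15 libraries), as did 8656 genes in all.

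The libraries fall into 5 groups of 3. The recruited nerve-associated macrophages after injury (recsNAM), the resident ones after injury (injsNAM) and the interstitial macrophages after injury (injIM) came from the punched left ear. The macrophages titled sNAM and the interstitial macrophages (IM) came from the unpunched right ear. The title of the study links sensory neurons and TGF-β to the identity of these local macrophages. All mice carried CX3CR1-creERT2/gfp and R26-tdT/+, which the genotype tag spells Cxcr1creERT2/gfp, so every group, unpunched ears included, carried a tamoxifen-inducible Cre and a GFP reporter at the Cx3cr1 locus together with the tdTomato reporter. All mice received tamoxifen, the ear was punched 3 weeks later, and the skin was collected another 10 days later. Cells were sorted as CD11b+ CD64+ Lin-, and the protocol gates interstitial cells as GFP-/Tomato-, resident nerve-associated cells as GFP+/Tomato+ and recruited ones as GFP+/Tomato-. The reporter tag of the single samples does not follow those gates: it reads GFP+/Tomato+ for injIM and GFP-/Tomato- for sNAM. Groups are named here by the sample titles. All samples came from 3 mice, and no label ties a library to a mouse or gives an age. The groups thus share animals, and p-values measure the spread between these libraries.

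Cells take up iron bound to transferrin (Trf) through the transferrin receptor (Tfrc), and the divalent metal transporter Slc11a2 moves it out of the endosome. Macrophages also obtain iron by engulfing red cells: haem oxygenase (Hmox1) opens the haem ring, ferritin (Fth1 and Ftl1) stores the iron, and ferroportin (Slc40a1) is the known route by which it leaves the cell. When iron is scarce, iron regulatory proteins bind a short hairpin in the mRNA, the iron-responsive element, whose loop reads CAGTG in DNA letters. Binding before the coding sequence holds back translation, as in ferritin and ferroportin, while binding after it protects the mRNA from decay, as in Tfrc.

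The hairpins are shown because they separate the genes by the side of the coding sequence on which these proteins bind. The pattern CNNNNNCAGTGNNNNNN was searched on the sense strand of the UTRs of GENCODE vM21 basic coding transcripts (GRCm38), with the 5 bases before CAGTG required to pair with the last 5 bases, G-U pairs allowed. The pattern was found in 4 of the 10 genes, in the 5′ UTR of Fth1, Ftl1 and Slc40a1 and at 4 places in the 3′ UTR of Tfrc. Over 21899 genes it was found in the 5′ UTR of 28 (0.128%), in the 3′ UTR of 127 (0.58%) and in either of 155 (0.708%). No match was found in Trf, Hmox1, Blvrb, Slc11a1, Slc11a2 or Ncoa4, which says only that these letters with this pairing are not in their annotated UTRs. Each stretch below runs 5′ to 3′ in the sense of the mRNA, with the loop bases CAGTG in capitals.
Fth1, 5′ UTR, chr19:9982732-9982761 (+): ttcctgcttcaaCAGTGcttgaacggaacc
Ftl1, 5′ UTR, chr7:45459778-45459807 (-): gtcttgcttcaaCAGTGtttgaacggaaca
Slc40a1, 5′ UTR, chr1:45925464-45925493 (-): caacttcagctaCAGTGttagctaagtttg
Tfrc, 3′ UTR site 1, chr16:32631219-32631248 (+): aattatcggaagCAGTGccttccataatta
Tfrc, 3′ UTR site 2, chr16:32631598-32631627 (+): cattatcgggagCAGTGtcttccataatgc
Tfrc, 3′ UTR site 3, chr16:32631663-32631692 (+): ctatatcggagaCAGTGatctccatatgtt
Tfrc, 3′ UTR site 4, chr16:32631710-32631739 (+): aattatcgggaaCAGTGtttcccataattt

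The site lies in 3 of 3 annotated coding transcripts of Fth1, in 1 of 1 of Slc40a1, in 1 of 2 of Ftl1 and in 1 of 2 of Tfrc. The deposited counts are per gene, so transcripts with and without a site cannot be told apart.

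**Figure D1:**
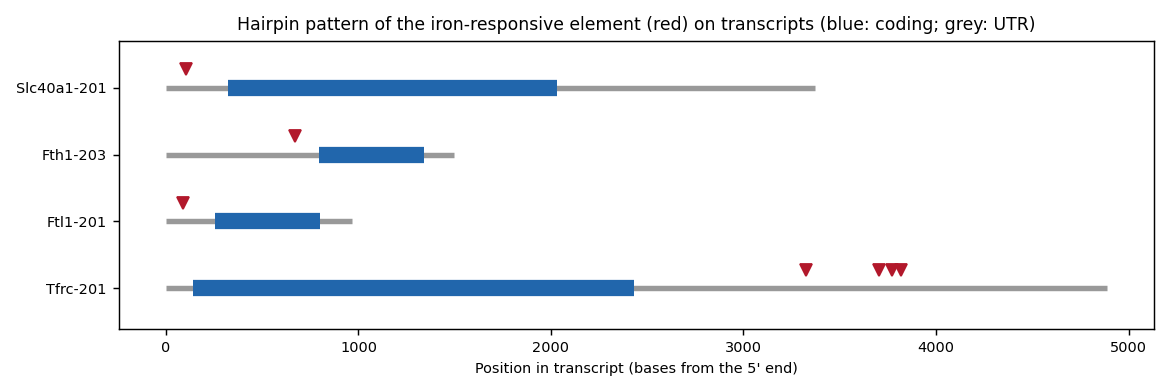
Positions of the hairpin pattern (red triangles) along 1 transcript of each of 4 genes, in bases from the 5′ end, with the coding part in blue and the UTRs in grey. Slc40a1, Fth1 and Ftl1 each have 1 site before the coding part and Tfrc has 4 sites after it.

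All 8 macrophage markers checked (Adgre1, Csf1r, Fcgr1, Itgam, Cd68, Mertk, Lyz2 and Cd14) passed the filter, and their summed level, most of it Lyz2 and Cd14, lay between 329824 and 523638 normalized counts in all 15 libraries. Single markers differed between groups: Csf1r ran from 34143 to 51036 in sNAM, against 74994 to 79954 in IM, and Cd68 from 21862 to 39329 in sNAM, against 53948 to 60172 in IM, while Cd14 ran from 158606 to 215755 in sNAM, against 117052 to 144284 in IM. The libraries differ in quality. Reads recovered from the normalized values came to between 20397849 and 23794162 in the recsNAM, injIM and IM libraries, 16889283 to 19520105 in injsNAM and 5636251 to 18632984 in sNAM. Of the tested genes, 3.89% to 25.8% were at 0 in sNAM libraries and 4.26% to 8.79% in injsNAM libraries, against at most 0.751% in the others. Libraries of a group correlated across genes at 0.644 to 0.776 within sNAM and at 0.762 to 0.772 within injsNAM, against 0.934 to 0.983 within the other groups. The fit gave the groups relative weights of 1.67 for recsNAM, 0.311 for injsNAM, 0.175 for sNAM, 3.21 for injIM and 3.43 for IM, so values of both nerve-associated groups with low weights carry wide intervals. Each library is a pool of sorted cells, so that fewer cells of a kind and less RNA per cell cannot be told apart.

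Markers of other cells also moved between groups. The summed level of 7 dendritic cell markers was 27148 to 55396 in sNAM, against 4443 to 11153 in IM, and 5659 to 8882 in recsNAM, against 1668 to 4413 in injIM. Ccr7, Flt3 and Ccl22 were higher and apart in both comparisons. Zbtb46 was higher and apart in sNAM against IM but overlapped in recsNAM against injIM. Xcr1 went the other way in sNAM, at 0 to 171 against 226 to 516 in IM, and overlapped in recsNAM against injIM. Clec9a overlapped in both and reached at most 33.3 in sNAM. Ccr7 ran from 17585 to 41050 in sNAM, against 285 to 591 in IM, and from 2940 to 6529 in recsNAM, against 80.9 to 313 in injIM. Flt3 ran from 1660 to 3441 in sNAM, against 10.4 to 31.2 in IM, and from 157 to 474 in recsNAM, against 19.0 to 84.98 in injIM. The most abundant dendritic marker of the interstitial groups, Cd209a, overlapped between the groups of both comparisons. Mast cell markers summed to 1866 to 3056 in recsNAM, against 3381 to 3648 in injIM, and were in turn lower in injIM than the 7082 to 9638 of IM; sNAM libraries ran from 2.89 to 19812. Fibroblast markers summed to 724 to 4388 in recsNAM, against 4544 to 17417 in injIM, and to 113 to 862 in sNAM, against 4518 to 7613 in IM. T cell markers reached 4899 in sNAM and 5452 in injsNAM, against at most 122 in recsNAM, 53.4 in injIM and 94.99 in IM. The 6 Schwann cell markers other than Pmp22 summed to at most 472 in any library. Pmp22 itself was abundant, at 14534 to 20476 in recsNAM, against 37700 to 50266 in injIM. In sNAM it ran from 13557 to 27552, against 45267 to 60652 in IM. The part of these cells in the results on iron genes was not tested. The 7 red cell markers summed to 11.1 to 597 in sNAM libraries, where Hba-a1 alone reached 521, and to at most 137 in injsNAM and 41.6 in any other library.

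Per kilobase of exon, ferritin was the most abundant of the iron mRNAs in all 5 groups. Fth1 averaged between 173106 and 223229 normalized counts per kb over the groups and Ftl1 between 137601 and 157608. Hmox1 came next at 32592 to 109611 per kb. Trf followed at 2631 to 6461 and Slc11a1 at 3436 to 4828, which do not separate from each other in every group, and then Blvrb at 1233 to 2163 and Slc11a2 at 804 to 1473. The lowest were Tfrc (121 to 1008), Slc40a1 (58.7 to 944) and Ncoa4 (145 to 250), whose order differed between groups. Exon lengths come from GENCODE vM21, since no source used here gives the annotation the authors counted with. Ferritin light chain and heavy chain reads together made up 2.03% to 3.58% of a library.

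**Figure D2:**
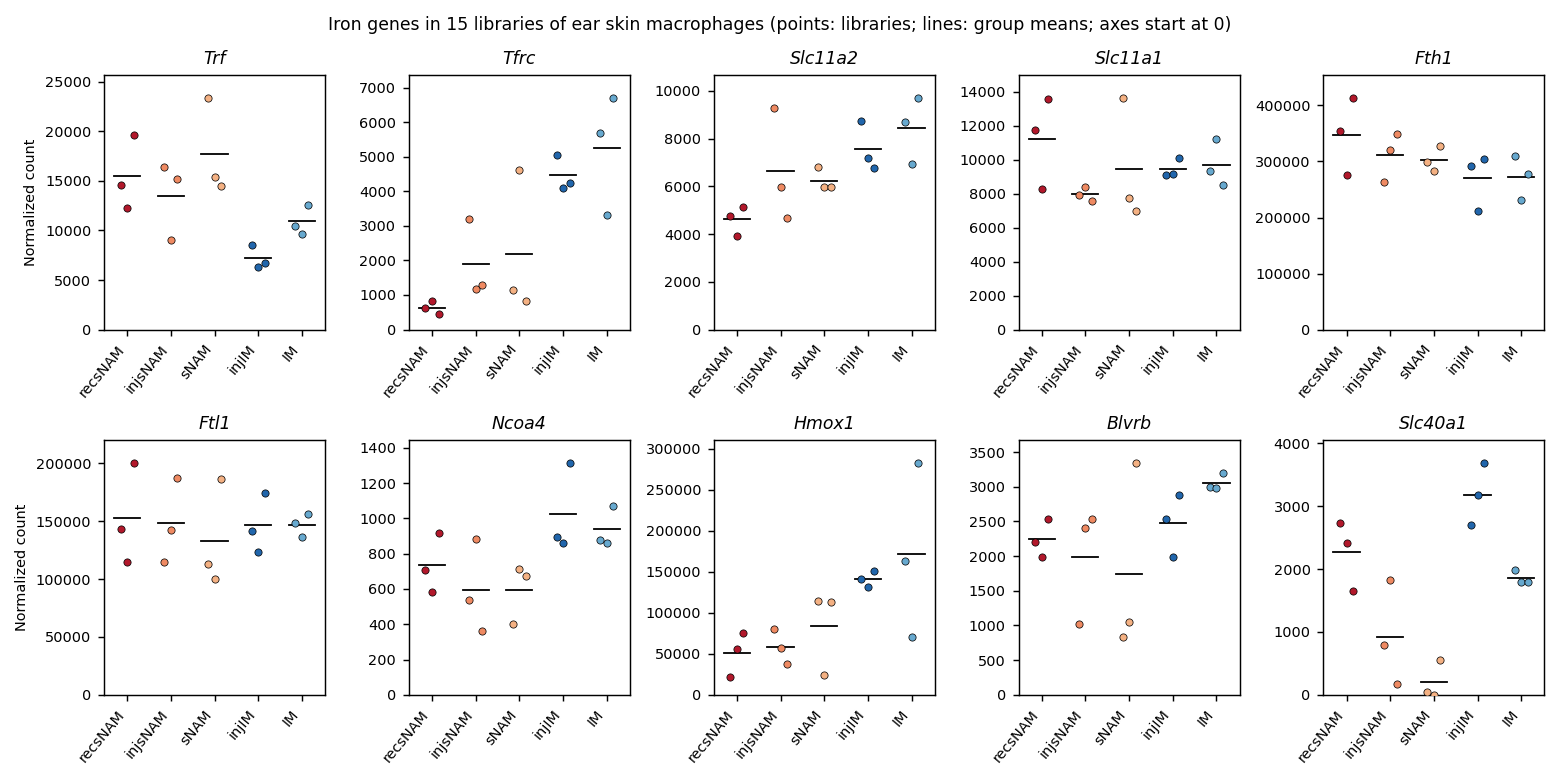
Normalized counts of the 10 iron genes (vertical axes, each starting at 0) in the 5 groups, with 1 point per library and a line at the group mean of 3 libraries. Tfrc lies between 462 and 816 in recsNAM, and Slc40a1 lies at or under 548 in sNAM. The ranges of Fth1 and of Ftl1 overlap between all groups.

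The comparisons were made with limma on log2(normalized count + 100) with 1 weight per group, and a gene passed at a Benjamini-Hochberg adjusted p under 0.05 over the 8656 genes. The log2 differences are on that scale, which understates the change of low genes. Recruited macrophages against interstitial macrophages of the same punched ears gave the most changes: 3 of the 10 genes passed, Trf higher and Tfrc and Slc11a2 lower, against 7.53% of all genes tested. In injIM against IM, 2 of 10 passed, Slc40a1 higher and Trf lower, against 8.18% of all genes. In sNAM against IM, 1 of 10 passed, Slc40a1 lower, against 1.05% of all genes.

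None of the 10 passed in injsNAM against sNAM, where 0% of all genes passed, in injsNAM against injIM (0.485% of all genes), or in recsNAM against injsNAM (0%). The difference between the injury responses, injsNAM minus sNAM less injIM minus IM, also gave 0 of 10 in limma (0% of all genes). At an unadjusted p under 0.05 the limma counts were 1 of 10 in the first of these, 3 in the second, 2 in recsNAM against injsNAM and 0 in the interaction. Over all 8656 genes these limma counts were 586, 1015, 619 and 444, in the same order. On recovered reads, edgeR passed 0 of 10 in each of the 4. DESeq2 passed 0 in each except 1 in injsNAM against injIM, which was Trf (adjusted p = 0.0285). Over all genes, in the same order, edgeR passed 135, 35, 6 and 26, and DESeq2 passed 725, 314, 154 and 228. Intervals in these comparisons are wide, so a missed threshold does not show equal levels.

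The number of calls changed with the group weights and with the test. Over all genes, limma with weights called 652 in recsNAM against injIM, 708 in injIM against IM and 91 in sNAM against IM, and the same fit without weights called 22, 18 and 727. In these comparisons edgeR's quasi-likelihood test on the recovered reads called 9, 4 and 332 and DESeq2 called 121, 64 and 922. Of the 10 iron genes, edgeR called 0 in each of these 3 comparisons and DESeq2 called 2, 0 and 1. The median of all genes was -0.26 in sNAM against IM on the limma scale, -0.11 with edgeR's scaling and -0.04 with DESeq2's. Single iron genes did not all move with it. In the same order, Fth1 was at 0.16, 0.09 and 0.16, and Tfrc at -1.55, -1.38 and -1.25.

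The median log2 difference of the 10 iron genes was -0.27 in recsNAM against injIM, where that of all genes was -0.02, and -0.05 in injIM against IM, where that of all genes was 0.03. In sNAM against IM it was -0.51, beside -0.26 for all genes. Libraries of the compared groups did not overlap for 4 of 10 iron genes in recsNAM against injIM (23.9% of all genes), for 3 in injIM against IM (24.9%) and for 4 in sNAM against IM (27.9%). Groups stood apart for 5 of 10 in injsNAM against injIM (21.0% of all genes), for 1 in recsNAM against injsNAM (13.7%) and for 0 in injsNAM against sNAM (12%).

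**Figure D3:**
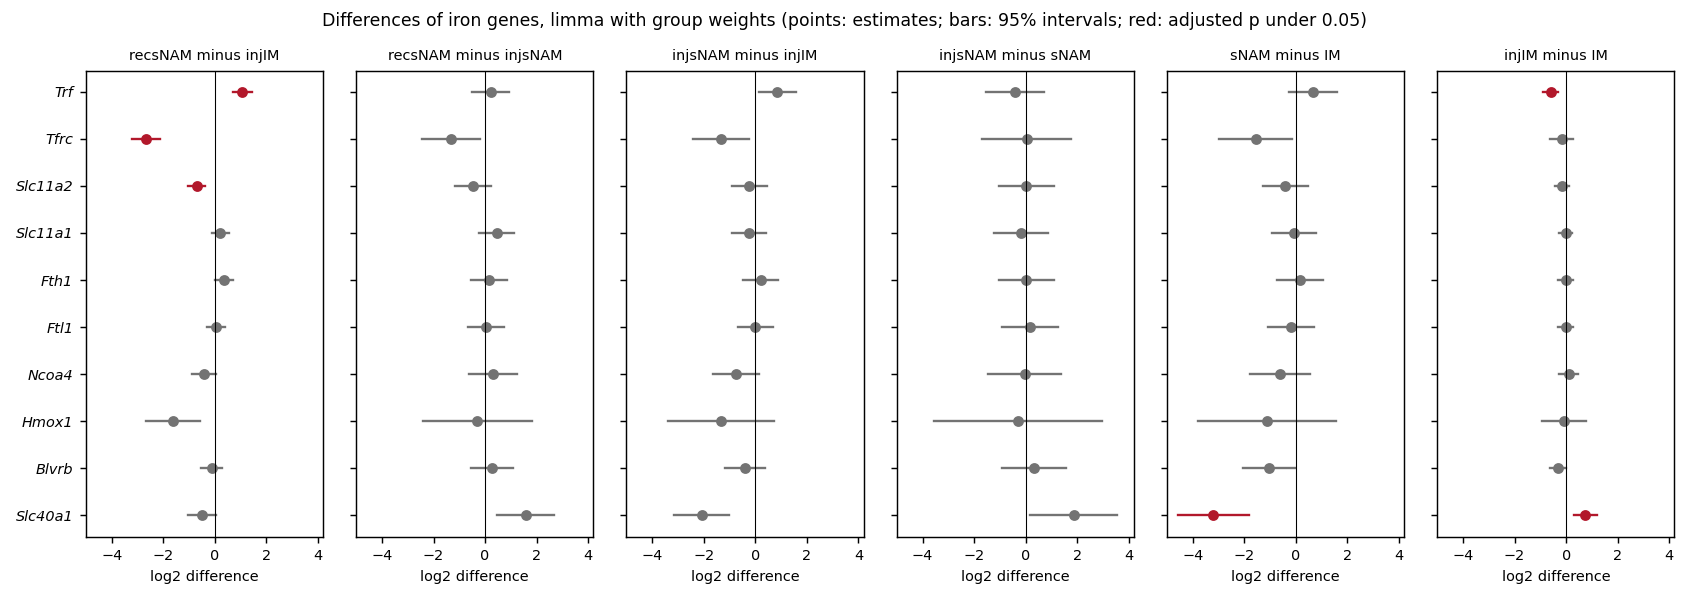
Log2 differences of the 10 iron genes in 6 comparisons (horizontal axis, limma estimates on log2(normalized count + 100)), with bars for 95% confidence intervals and red for an adjusted p under 0.05. Tfrc and Slc11a2 lie below 0 and Trf above 0 in recsNAM minus injIM, and Slc40a1 passes below 0 in sNAM minus IM and above 0 in injIM minus IM.

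Tfrc, the receptor that brings in transferrin-bound iron, showed the largest change among the iron genes that passed in recruited macrophages. It had 613, 816 and 462 normalized counts in recsNAM, against 5058, 4102 and 4244 in injIM. Every recsNAM library lay far under every injIM library, and the means differed 7.09-fold. The log2 difference was -2.67 (SE 0.26, 95% confidence interval -3.22 to -2.12, adjusted p = 5.27e-06 with limma), rank 8 by p of 8656 genes. Leaving out any 1 library kept the call (adjusted p between 5.86e-06 and 0.000322), as did DESeq2 (0.000212), but edgeR did not (log2 difference -2.81, adjusted p = 0.110).

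In the other groups Tfrc varied widely. The injsNAM libraries held 3196, 1167 and 1303 normalized counts, the sNAM libraries 1140, 4608 and 818, and the IM libraries 5685, 3326 and 6709. The recsNAM libraries were also all below the injsNAM libraries, at a log2 difference of -1.33 (95% confidence interval -2.46 to -0.20) that did not pass (adjusted p = 0.581 with limma). In injsNAM against injIM the groups stood apart as well (log2 difference -1.34, 95% confidence interval -2.42 to -0.25, adjusted p = 0.295 with limma). Replicate 2 of sNAM lay among the IM values while the other two sNAM libraries were under all of them, and the comparison with IM did not pass (log2 difference -1.55, adjusted p = 0.292 with limma). The punch itself left interstitial levels within their spread (injIM minus IM -0.17, 95% confidence interval -0.62 to 0.28).

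Trf, the iron carrier itself, best known as a plasma protein made by the liver, was higher in recruited macrophages and lower in interstitial macrophages after the punch. It had 14566, 12277 and 19687 normalized counts in recsNAM, against 8586, 6363 and 6751 in injIM. No library of one group reached the other group's range, and the log2 difference was 1.07 (SE 0.17, 95% confidence interval 0.72 to 1.43, adjusted p = 0.000467 with limma). DESeq2 kept this call (adjusted p = 0.00496), edgeR did not (0.164), and neither did limma without group weights (0.105).

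In injIM the values of Trf given above stood against 10499, 9687 and 12610 in IM, again without overlap. The log2 difference was -0.59 (SE 0.14, 95% confidence interval -0.88 to -0.30, adjusted p = 0.0105 with limma). This call was lost with edgeR and DESeq2 (adjusted p = 1.0 and 0.447), without IM replicate 3 (0.0867) and without injIM replicate 2 (0.0664). Both comparisons share the injIM libraries, so the low injIM level enters each of them.

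Uninjured and resident nerve-associated macrophages had high and uneven Trf levels. The sNAM libraries held 23403, 15399 and 14482 normalized counts, all above the IM range, at a log2 difference of 0.67 that did not pass (95% confidence interval -0.25 to 1.59, adjusted p = 0.509 with limma). The injsNAM libraries held 16394, 9018 and 15164, all above the injIM range, at a log2 difference of 0.86 (95% confidence interval 0.15 to 1.56, adjusted p = 0.298 with limma). With DESeq2 the injsNAM difference passed, at 0.90 and the adjusted p given above, and with edgeR it did not. Across groups, Trf was highest where dendritic cell markers were also high, in sNAM; the part of such cells in its level was not tested.

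Slc11a2, the divalent metal transporter that moves iron across the endosomal membrane, was lower in recruited macrophages. It had 4756, 3934 and 5137 normalized counts in recsNAM, against 8746, 7184 and 6782 in injIM. The highest recsNAM library stayed below the lowest injIM library, and the log2 difference was -0.70 (SE 0.16, 95% confidence interval -1.04 to -0.36, adjusted p = 0.00948 with limma). This call did not hold with edgeR (adjusted p = 0.568) or DESeq2 (0.132), or without injIM replicate 1 (0.0724), recsNAM replicate 1 (0.0744) or recsNAM replicate 2 (0.0614).

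Elsewhere Slc11a2 ranged from 4669 to 9286 in injsNAM, from 5953 to 6789 in sNAM and from 6945 to 9709 in IM. The sNAM libraries all lay under the IM libraries, but the difference of -0.42 did not pass (adjusted p = 0.687 with limma). The gene overlaps Gm5475 on the opposite strand, and the library kit does not mark strand; Gm5475 had at most 9.51 normalized counts in any library.

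Slc11a1, a metal transporter of the phagosome membrane that is typical of macrophages, passed in no comparison. Its libraries ran from 8275 to 13588 normalized counts in recsNAM, 7563 to 8427 in injsNAM, 7001 to 13658 in sNAM, 9108 to 10120 in injIM and 8501 to 11208 in IM. The highest and the lowest of all 15 values were both sNAM libraries. The injsNAM libraries were all under the injIM libraries, by a log2 difference of -0.24 (95% confidence interval -0.89 to 0.41). In injIM against IM the interval ran from -0.29 to 0.24 around -0.02.

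Neither ferritin subunit passed in any comparison of this limma fit. Fth1, the heavy chain that oxidises iron for storage, averaged 347791 ± 69501 normalized counts in recsNAM, 310770 ± 44053 in injsNAM, 303106 ± 23330 in sNAM, 269698 ± 50244 in injIM and 272882 ± 39178 in IM (SD, n = 3 each). Ftl1, the light chain, averaged 152565 ± 43574 in recsNAM, 147977 ± 36524 in injsNAM, 133197 ± 46611 in sNAM, 146263 ± 26013 in injIM and 146857 ± 10219 in IM (SD, n = 3 each). For the punch in interstitial macrophages the log2 difference of Fth1 was -0.02 with a 95% confidence interval of -0.30 to 0.25, and that of Ftl1 was -0.02 with an interval of -0.30 to 0.26.

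The Fth1 difference furthest from 0 was in recsNAM against injIM, at 0.36 (95% confidence interval 0.02 to 0.71, adjusted p = 0.222 with limma), and the ranges of 275294 to 413848 in recsNAM and 212060 to 304245 in injIM overlapped. Within a library, Fth1 exceeded Ftl1 2.07- to 2.48-fold in recsNAM and 1.72- to 2.07-fold in injIM, and 1.76- to 2.82-fold in sNAM and 1.70- to 2.08-fold in IM. The 5 annotated copies of Ftl1 with at least 95% identity over at least 50% of its coding sequence (Ftl1-ps1, Ftl1-ps2, Ftl2-ps, Gm12164 and Gm15590) are not among the genes used here, and the handling of reads that match several copies is not stated in the labels. The level of Ftl1 is uncertain to that extent.

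Ncoa4, the receptor that delivers ferritin to the lysosome so that its iron can be released, passed in no comparison. Its libraries ran from 584 to 920 normalized counts in recsNAM, 364 to 884 in injsNAM, 402 to 710 in sNAM, 860 to 1314 in injIM and 862 to 1069 in IM. The 3 sNAM values were under the 3 IM values, at a log2 difference of -0.60 (95% confidence interval -1.77 to 0.56, adjusted p = 0.662 with limma). In recsNAM against injIM the ranges overlapped (log2 difference -0.42, adjusted p = 0.311 with limma). Ncoa4 has 1 near-identical annotated copy, Gm6768, and Trf overlaps 1, Gm20425, on the same strand, so that shared reads could affect both.

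Hmox1, which breaks haem open and sets its iron free, had the widest relative spread of the 10 between IM libraries. It had 22126, 55773 and 75512 normalized counts in recsNAM, against 140500, 131788 and 150685 in injIM. All recsNAM libraries were under all injIM libraries, and the means differed 2.76-fold. The log2 difference of -1.63 (SE 0.49, 95% confidence interval -2.67 to -0.59) missed the threshold (adjusted p = 0.0572 with limma). It passed with a pseudocount of 10 (adjusted p = 0.0255), while DESeq2 and edgeR gave adjusted p-values of 0.197 and 0.961.

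The IM libraries of Hmox1 held 163057, 70555 and 282326 normalized counts, a range that took in all 3 injIM values. The sNAM libraries held 114635, 24109 and 112966, and the injsNAM libraries 80015, 56930 and 37787. All injsNAM libraries were below the injIM libraries, but the difference of -1.34 did not pass (95% confidence interval -3.39 to 0.71, adjusted p = 0.666 with limma). For sNAM against IM (log2 difference -1.12, 95% confidence interval -3.79 to 1.55) the ranges overlapped and the interval leaves the size of any difference unresolved.

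Blvrb, a biliverdin reductase of the haem breakdown pathway, passed in no comparison. It ranged from 1990 to 2541 normalized counts in recsNAM, 1019 to 2537 in injsNAM, 839 to 3342 in sNAM, 1993 to 2882 in injIM and 2983 to 3197 in IM. The IM libraries were tightly grouped and above all injIM libraries (log2 difference -0.31, 95% confidence interval -0.63 to 0.01, adjusted p = 0.263 with limma). In sNAM against IM, replicate 3 of sNAM lay above the IM range while replicates 1 and 2 lay well below it, and the difference of -1.03 did not pass (adjusted p = 0.323 with limma).

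Slc40a1, ferroportin, was lower in sNAM than in interstitial macrophages of unpunched skin. It had 46.2, 0 and 548 normalized counts in sNAM, from 48, 0 and 296 reads, against 1978, 1791 and 1789 in IM. All sNAM libraries lay below the IM libraries, and the means differed 9.36-fold. The sNAM libraries had, in the same order, 11.6%, 25.8% and 3.89% of tested genes at 0, against at most 0.243% in IM. Within sNAM, Slc40a1 was lower where that share was higher. The part of library quality in this difference was not tested. The count of 0 in sNAM replicate 2, the shallowest library, allows up to 3 reads, or 8.73 normalized counts; such floors cover counting error only, since PCR copies were not marked. The log2 difference was -3.20 (SE 0.66, 95% confidence interval -4.59 to -1.82, adjusted p = 0.0289 with limma), rank 35 by p.

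DESeq2 kept this Slc40a1 call (adjusted p = 0.0300) and edgeR did not (0.188). It was also lost when a library of the group was left out, with an adjusted p of 0.218 without sNAM replicate 1, 0.0672 without sNAM replicate 2 and 0.0770 without sNAM replicate 3, while the log2 difference stayed between -4.01 and -2.66. A pseudocount of 10 gave -4.78 (adjusted p = 0.0844).

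After the punch, Slc40a1 was higher in interstitial macrophages. It had 2692, 3171 and 3685 normalized counts in injIM, which were all above the IM values given before. The log2 difference was 0.74 (SE 0.21, 95% confidence interval 0.30 to 1.18, adjusted p = 0.0335 with limma). Of 12 alternatives this call held in 1, and it was lost without any 1 library: adjusted p = 0.0836, 0.0524 and 0.135 without IM replicates 1, 2 and 3, and 0.0695, 0.105 and 0.0761 without injIM replicates 1, 2 and 3. Its direction was the same in all 12, with log2 differences between 0.63 and 0.85.

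In the punched ear, Slc40a1 had 2739, 2407 and 1651 normalized counts in recsNAM and 789, 1820 and 170 in injsNAM. The recsNAM range overlapped that of injIM (log2 difference -0.49, 95% confidence interval -1.03 to 0.05, adjusted p = 0.325 with limma). The injsNAM libraries were all under the injIM libraries (log2 difference -2.08, 95% confidence interval -3.14 to -1.01), and this missed the threshold (adjusted p = 0.0698 with limma) but passed without injsNAM replicate 2 (log2 difference -2.73, adjusted p = 0.0272). For recsNAM against injsNAM the difference was 1.59 (95% confidence interval 0.48 to 2.69, adjusted p = 0.438 with limma), and for injsNAM against sNAM it was 1.87 (95% confidence interval 0.18 to 3.56, adjusted p = 0.683 with limma). The response to the punch was not shown to differ between sNAM and interstitial macrophages (interaction 1.13, 95% confidence interval -0.62 to 2.88, adjusted p = 0.974 with limma).

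Ratios within a library do not depend on its scaling, and set the export gene and the carrier beside the receptor. Slc40a1 counts were 2.95 to 4.47 times those of Tfrc in recsNAM and 0.532 to 0.868 times in injIM. The same ratio was 0.131 to 1.56 in injsNAM, 0 to 0.670 in sNAM and 0.267 to 0.538 in IM, so that recsNAM libraries were the highest of all 15. Trf exceeded Tfrc 15.05- to 42.6-fold in recsNAM, against 1.55- to 1.70-fold in injIM. In injsNAM Trf exceeded Tfrc 5.13- to 11.6-fold, in sNAM 3.34- to 20.5-fold and in IM 1.85- to 2.91-fold; the 9 nerve-associated libraries were all above the 6 interstitial ones. These ratios restate the levels above, were chosen with those levels known, and were given no test.

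**Figure D4:**
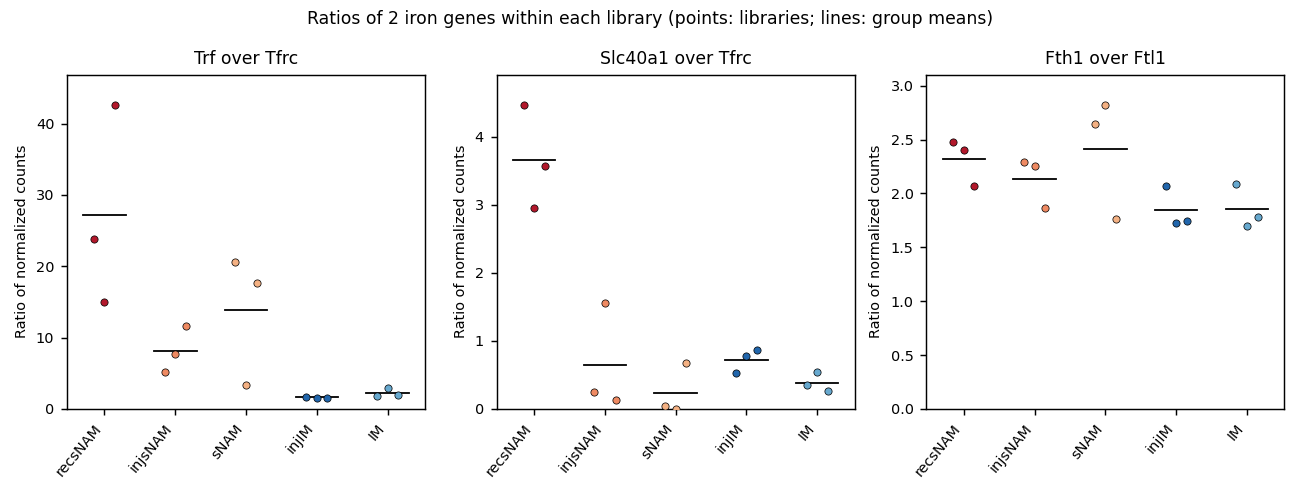
Ratios of normalized counts of 2 genes within each library (vertical axes, starting at 0), with 1 point per library and a line at the mean of 3. The 3 recsNAM libraries have the highest Slc40a1 over Tfrc, at 2.95 to 4.47, while Fth1 over Ftl1 stays between 1.70 and 2.82 in all 15 libraries.

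Beyond the 10 genes, 60 others from 4 lists of iron and haem genes were followed, of which 42 passed the filter. In recsNAM against injIM, 2 of the 42 rose and 4 fell, and in injIM against IM, 3 rose and 3 fell, beside the 7.53% and 8.18% of all genes. In limma 0 of the 42 passed in the other comparisons. Of these, 8 had an unadjusted p under 0.05 in sNAM against IM, 7 in injsNAM against injIM, 2 in injsNAM against sNAM, 1 in recsNAM against injsNAM and 1 in the interaction. Of all 8656 genes, 1297, 1015, 586, 619 and 444 did so, in the same order. In that order edgeR passed 3, 0, 0, 0 and 0 of the 42, and DESeq2 passed 8, 2, 4, 2 and 0. Over all 8656 genes edgeR passed 332, 35, 135, 6 and 26, and DESeq2 passed 922, 314, 725, 154 and 228. Of the 12 limma calls, edgeR kept 1 and DESeq2 kept 2, giving no adjusted p for Steap4.

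The 20 genes of iron uptake and haem handling held 12 that passed the filter, and in recsNAM against injIM 1 of these rose and 3 fell (median log2 difference -0.22, all genes -0.02). Cd163, the macrophage receptor for haemoglobin bound to haptoglobin, had 1322, 2042 and 1306 normalized counts in recsNAM, against 11698, 9870 and 5595 in injIM. The groups were far apart, and the log2 difference was -2.43 (SE 0.25, adjusted p = 7.79e-06 with limma), the 1 call of the 12 that held under all alternatives, edgeR included (adjusted p = 0.0366). Cd163 was also lower in injIM than in IM, which had 15246, 13013 and 18124 (log2 difference -0.82, adjusted p = 0.0146 with limma), the 1 gene of this list that passed there. That call was lost with edgeR and DESeq2, without IM replicate 1 (0.0567) and without IM replicate 3 (0.105). The other nerve-associated groups were low in Cd163 as well. It ran from 2495 to 6901 in sNAM, all below IM, and from 2858 to 5164 in injsNAM, all below injIM. Neither difference passed (adjusted p = 0.225 and 0.331 with limma).

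Slc48a1, a haem transporter of the lysosome, had 7145 to 7213 normalized counts in recsNAM, against 9933 to 10807 in injIM (log2 difference -0.54, adjusted p = 0.00531 with limma, 0.0270 with DESeq2 and 0.397 with edgeR). Without recsNAM replicate 1 its adjusted p was 0.0635, and without group weights 0.333. Slc48a1 was lower still in sNAM, at 4673 to 5593 against 9320 to 10012 in IM (adjusted p = 0.166 with limma). In injsNAM it ran from 5298 to 7746, all below injIM (adjusted p = 0.251 with limma). Steap4, a metalloreductase, was at 0 in all 3 recsNAM libraries, against 545, 312 and 352 in injIM. The injIM mean lay 172-fold above the floor of 3 reads per library, at most 2.34 normalized counts in recsNAM. That floor covers counting error only. Steap4 was also at 0 in sNAM replicate 2 and injsNAM replicate 1, beside 697 in sNAM replicate 1 and 736 in injsNAM replicate 2. A 0 in a library thus does not bound the level of this gene. The call (adjusted p = 0.000358 with limma) was lost with edgeR (0.331) and without group weights (0.388). Lrp1, a large endocytic receptor that takes up haem bound to haemopexin, had 12553 to 20021 in recsNAM, against 10282 to 12640 in injIM, ranges that overlap slightly (log2 difference 0.52, adjusted p = 0.0476 with limma). Its call was lost without injIM replicate 1 (0.179) or 3 (0.0677) and without recsNAM replicate 1 (0.438) or 3 (0.0828). Lrp1 ran from 15004 to 21472 in sNAM, against 8864 to 10901 in IM, and from 10168 to 20250 in injsNAM.

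Of the 16 genes of iron sensing and regulation 10 passed the filter, and 1 changed. Spic, a transcription factor known from red pulp macrophages that recycle iron, had 4946, 4198 and 4169 normalized counts in injIM, against 3061, 2395 and 2836 in IM. The groups did not overlap (log2 difference 0.67, SE 0.13, adjusted p = 0.00278 with limma), and every removal of 1 library kept the call, but edgeR and DESeq2 did not (adjusted p = 1.0 and 0.734). Spic ran from 4379 to 5496 in injsNAM, against 626 to 2978 in sNAM, and from 5550 to 6201 in recsNAM. The difference of 1.64 in injsNAM against sNAM did not pass (adjusted p = 0.553 with limma). The mRNAs of the iron regulatory proteins, Aco1 and Ireb2, and of the haem sensor Bach1 passed in no comparison. The ferroportin ligand hepcidin (Hamp) was under the filter, at no more than 125 normalized counts in any library and 0 in 6.

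Of the 14 genes of intracellular iron use 11 passed the filter, and 1 changed. Alas1, the first enzyme of haem synthesis outside red cells, had 4242, 3712 and 4030 normalized counts in injIM, against 5750, 6016 and 6246 in IM. All injIM libraries were lower (log2 difference -0.58, SE 0.12, adjusted p = 0.00490 with limma), which edgeR and DESeq2 did not call (1.0 and 0.669).

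The 10 targets of Nrf2 and Bach1, factors that also act on Hmox1 and ferritin genes, held 9 that passed the filter. In recsNAM against injIM 1 rose and 1 fell, and in injIM against IM 2 rose and 1 fell. Slc7a11, the cystine importer, had 10832, 8609 and 4870 normalized counts in recsNAM, 4198, 4577 and 2485 in injIM and 1300, 2063 and 1228 in IM. The other nerve-associated groups were also above the IM range, with 11116, 9135 and 3483 in injsNAM and 7546, 5269 and 4080 in sNAM. Slc7a11 was higher in recsNAM than in injIM (log2 difference 1.06, adjusted p = 0.0235 with limma). It was also higher in injIM than in IM (1.23, adjusted p = 0.00167 with limma), and these comparisons share the injIM libraries. In sNAM against IM the difference of 1.80 did not pass (adjusted p = 0.239 with limma). The call in recsNAM against injIM was lost without recsNAM replicate 1 (0.281) or 2 (0.0850).

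Gsr, glutathione reductase, had 3101 to 3718 normalized counts in injIM, against 1968 to 2081 in IM (log2 difference 0.72, adjusted p = 0.00379 with limma). Srxn1, sulfiredoxin, went the other way, with 23473 to 34571 in injIM, against 39736 to 42706 in IM (log2 difference -0.52, adjusted p = 0.0125 with limma, and 0.0510 without IM replicate 1). Sqstm1, an autophagy receptor, had 76971 to 94270 in recsNAM, against 107316 to 135633 in injIM (log2 difference -0.43, adjusted p = 0.0486 with limma). Its call was lost without injIM replicate 1 (0.248), recsNAM replicate 1 (0.145) or recsNAM replicate 2 (0.198). DESeq2 and edgeR called none of the Slc7a11, Gsr, Srxn1 and Sqstm1 differences.

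**Figure D5:**
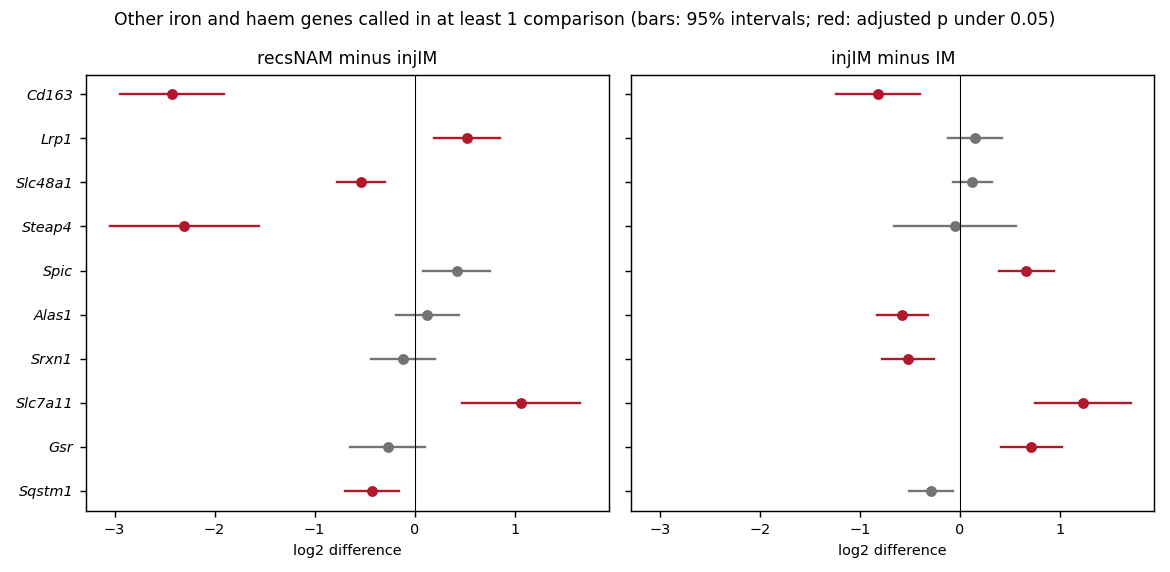
Log2 differences of the 10 other iron and haem genes that passed in at least 1 comparison (horizontal axis, limma estimates on log2(normalized count + 100)), with 95% confidence intervals as bars and red for an adjusted p under 0.05. Cd163 is lower in both comparisons shown, at -2.43 and -0.82, Slc7a11 is higher in both, at 1.06 and 1.23, and the plotted Steap4 value of recsNAM minus injIM depends on the pseudocount, since recsNAM is at 0.

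Over the 15 libraries, the genes whose log2 values followed Slc40a1 most closely were Eif2b1 (Pearson r = 0.97), Zbtb43 (0.96) and Bmi1 (0.95). For Tfrc they were Furin (0.89), Myo5a (0.85) and Plau (0.85), and for Hmox1 they included Ncl (0.89) and C1qtnf1 (0.87). Trf, chosen for this after its values were seen, was followed most closely by Foxn3 (0.87), Ccr7 (0.84) and Fam110a (0.82), of which Ccr7 is among the dendritic markers above. Such likeness among 8656 genes is a description over libraries that share animals and differ in depth and in genes at 0. Between the iron genes themselves, the highest correlations were those of Tfrc with Slc11a2 (r = 0.79), Blvrb with Ftl1 (0.76), Hmox1 with Slc11a2 (0.71) and Slc40a1 with Ncoa4 (0.68), and the lowest those of Slc40a1 with Trf (-0.67), Trf with Ncoa4 (-0.65) and Tfrc with Fth1 (-0.62).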

How the data were processed

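RNA of sorted macrophages from mouse ear skin was amplified from 250 pg with 13 PCR cycles and made into Nextera XT libraries, per the labels' protocols. The submitters' processing notes name bcl2fastq 2.18, cutadapt, STAR 2.7.2b, DESeq2 1.24.0, R 3.6.1 and mm10; they give no counting tool or annotation. Each deposited value is a normalized signal per gene, which the authors appear to have made by dividing read counts by 1 size factor per library: the low values step in whole reads. Whole reads were recovered for 100% of values (within 0.01) and used for library totals and count tests.

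Genes with a mean of at least 100 were tested on log2(value + 100) with limma 3.58.1 in R 4.3.3, with group means over all 15 libraries and 1 weight per group. The alternatives were a pseudocount of 10, no filter, no group weights, edgeR 4.0.16 and DESeq2 1.42.0 on recovered reads, a replicate term, and each library left out. Procedures were tested on simulated data. Libraries of a group differed beyond sampling noise (chi-square per degree of freedom at least 45.4). The iron genes and lists were chosen with earlier results of these data known. All iron genes are named, and of the lists those that passed; the setting changes for list genes were added after the data were seen. Near-identical copies were sought with BLAST 2.17.0 among GENCODE vM21 transcripts. Some single genes are not reported here.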

Additional observations from a re-analysis of the deposited data

How the results depend on the processing

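In sNAM against IM the count of iron genes that passed was 1, and it was 0 with a pseudocount of 10, with no filter and with edgeR, and between 0 and 1 with 1 library left out. In injIM against IM it was 2, then 1 with a pseudocount of 10, 0 with no filter, without group weights, with edgeR and with DESeq2, and 0 to 1 with 1 library left out. In injsNAM against injIM it was 0, then 1 with DESeq2 and 0 to 1 with 1 library left out. In recsNAM against injIM it was 3, then 4 with a pseudocount of 10 (Hmox1 added), 2 with no filter and with DESeq2 (Slc11a2 lost), 1 without group weights, 0 with edgeR and 2 to 3 with 1 library left out. The cause was not tested. With the replicate block the recsNAM against injIM count was 5, Hmox1 (adjusted p = 0.0185) and Fth1 (0.00331) being added, and calls over all genes numbered 1211, against 652 without the block; no other count of iron genes changed with the block. The numbers were not taken as pairs, since no label ties a number to a mouse and not every correlation of same-numbered deviations passed 0.1: they ran from -0.02 to 0.39, above 0 in 28 of 30 pairs and above 0.1 in 9, and were 0.093, 0.39 and 0.37 between injIM and recsNAM. A library correlated best with its own number in 44 of 60 checks against another group, and in 5 of 6 between recsNAM and injIM, a hint from the data, not the design.

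No called value changed sign among 900 values of the iron genes under alternatives: 806 kept sign and side of the threshold, 33 lost and 5 gained a call, and 56 that were called in neither fit changed sign, to a size of at most 0.42. With edgeR or DESeq2 these were, in injsNAM minus sNAM, Tfrc (-0.16 with edgeR, -0.22 with DESeq2) and Ncoa4 (0.0045 with edgeR), and in injsNAM minus injIM Ftl1 (-0.0018 with edgeR). With 1 library left out, the log2 differences that changed sign ranged as follows. In sNAM minus IM, Slc11a1 lay between -0.38 and 0.10. In injIM minus IM the ranges were Tfrc -0.46 to 0.031, Hmox1 -0.61 to 0.39, Fth1 -0.14 to 0.14, Ftl1 -0.15 to 0.10, Slc11a1 -0.11 to 0.085 and Ncoa4 -0.080 to 0.20. In injsNAM minus sNAM they were Tfrc -0.42 to 0.76, Hmox1 -1.03 to 0.091, Blvrb -0.031 to 0.91, Fth1 -0.060 to 0.14, Ftl1 -0.0064 to 0.45, Slc11a1 -0.36 to 0.11, Slc11a2 -0.23 to 0.25 and Ncoa4 -0.32 to 0.22. In injsNAM minus injIM they were Blvrb -0.60 to 0.015 and Ftl1 -0.18 to 0.17, and in recsNAM minus injIM Ftl1 -0.18 to 0.22. In recsNAM minus injsNAM they were Trf -0.051 to 0.38, Hmox1 -0.66 to 0.22, Blvrb -0.14 to 0.48 and Ftl1 -0.18 to 0.22. In the interaction they were Tfrc -0.25 to 0.93, Hmox1 -0.96 to 0.32, Fth1 -0.11 to 0.17, Slc11a1 -0.34 to 0.14, Slc11a2 -0.083 to 0.41 and Ncoa4 -0.42 to 0.12. Genes at 0 did not fully follow the order of depth within sNAM: the libraries with 18632984, 5636251 and 9086996 reads had 11.6%, 25.8% and 3.89% of tested genes at 0. The shallowest library had the largest share at 0, while the deepest had more at 0 than the one of middle depth. So few libraries cannot show whether depth matters.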
